A study of Mus musculus with 2 samples.

Results

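Solute carriers are membrane proteins that move small molecules and ions, and in the mouse most of their genes carry the symbol Slc followed by a family number. The rows described here are those whose symbol starts with Slc and a digit, that were listed in the count tables of both embryonic stages, and that had 100 or more UMIs (unique molecular identifiers, each standing for 1 captured transcript) over both tables in barcodes that held at least 500 genes and had less than 10% of UMIs from mitochondrial genes. Slc38a4, an imprinted member, was left out. Of 256 such rows listed in both tables, 179 reached the minimum, out of 15366 genes listed in both tables and 11659 genes at the same minimum. The UMI minimum used measured values, summed over both stages, and no stage ratio entered the choice. Just inside it stood Slc26a6, Slc5a5 and Slc25a43 with 103 UMIs each, and just outside it Slc22a5 with 94 and Slc25a45 with 87. Below the minimum were 77 rows, and 7 further rows were listed in the E12.5 table alone, as were 32 in the E13.5 table.

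The cells were male germ cells of CD1 mouse embryos, an outbred strain, sorted by FACS for Oct4GFP, a green fluorescent reporter of the germ cell transcription factor Oct4. There was 1 library at E12.5 and 1 at E13.5, prepared with 10x v2 chemistry, a droplet method that counts transcript 3' ends. No treatment is given in the labels, nor how many embryos were pooled. Stage and library therefore cannot be told apart, and no test was possible. Every interval is a 95% counting interval that leaves out variation between animals and libraries and extra spread among cells. Where a pair of values is given, the E12.5 library comes first and the E13.5 library second.

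The values come from 2604 barcodes of the E12.5 library and 2630 of the E13.5 library that passed the cell filter, carried at least 3 of 12 germ cell markers and had under 0.5% of UMIs from each of 9 marker lists of other cell types (99.4% and 98.5% of the barcodes that passed the cell filter). They held 60039436 and 58856246 UMIs, with medians of 23207.5 and 21610 UMIs per barcode. The germ cell markers summed to 7454 and 8323 CPM (UMIs per 1000000 UMIs of the library's summed cells), with all 12 detected at both stages. The marker lists of Sertoli, Leydig, interstitial, macrophage, mesonephric and mural cells lay between 0.316 and 16.3 CPM. Red blood cell markers stood at 0.283 and 23.2 CPM, surface epithelial markers at 29.3 and 7.92 CPM and endothelial markers at 112 and 46.9 CPM. Most of the endothelial sum was Pecam1 (77.3 and 25.6 CPM), while the endothelial genes Cdh5 and Kdr were at 0.374 CPM or less. The rest of that sum came from Egfl7, Esam, Cldn5 and, at E12.5, Tek, so endothelial marker UMIs were not confined to Pecam1. The 2 tables shared 24 barcode sequences, 10 of them among the germ-marker barcodes.

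Cells import amino acids, sugars, nucleosides and ions through plasma membrane carriers, and other carriers load the mitochondria, the Golgi apparatus and vesicles. The Slc25 family exchanges metabolites across the inner mitochondrial membrane, Slc39 and Slc30 proteins move zinc into and out of the cytosol, and Slc7 light chains reach the cell surface with the heavy chain Slc3a2. Over these days male germ cells in the fetal testis begin to leave the mitotic cycle.

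The 179 rows took 4880 and 4534 CPM in all, and 3 mitochondrial carriers held 51.6% and 49.0% of those sums. Slc25a4 stood at 1203 and 1248 CPM, Slc25a3, the mitochondrial phosphate carrier, at 757 and 671 CPM, and Slc25a5 at 560.2 and 305 CPM. The median row was far lower, at 6.88 and 5.88 CPM, so that most of the family was sparse. UMIs of 3' ends count molecules and are not scaled to gene length. Rows are called higher or lower where the E13.5 level differed by 1.5-fold or more from the E12.5 level, a class of size without a test. Of the 179 rows, 28 were higher (15.6%), 42 were lower (23.5%) and 109 lay in between. Over all 11659 genes at the same UMI minimum, 14.1% were higher and 14.2% lower. The median stage ratio (log2, E13.5 over E12.5) was -0.12 for the rows described here and -0.0049 for all those genes. The rows were sparser than genes at large, whose medians were 14.6 and 14.6 CPM. Restricted to levels of 10 CPM and above in either library, 12 of 75 Slc rows were higher and 13 lower (16.0% and 17.3%), against 8.59% and 9.89% of 7309 genes. At that level the medians were -0.063 and -0.021. The share of lower rows therefore stood above that of all genes, and at 10 CPM or more the share of higher rows did too. At that cut the Slc rows were still sparser, with median levels of 19.8 and 18.1 CPM against 33.4 and 32.9 CPM. A row could also pass the cut through the library where it was high, so these shares are not matched for level. In the annotation, exons of 44 rows overlap another gene on the opposite strand, and those of 8 rows on the same strand. No source used here gives the strand setting of the counting, so UMIs of such rows could include those of the other gene. Among rows described here, an opposite-strand overlap was found for Slc2a1, Slc5a6, Slc6a6, Slc7a7, Slc12a4, Slc15a4, Slc20a1, Slc24a5, Slc25a11, Slc25a33, Slc25a37, Slc26a10, Slc27a2, Slc29a1, Slc35a4, Slc37a1, Slc38a10, Slc43a2, Slc44a1 and Slc48a1, and a same-strand overlap for Slc5a3, Slc25a51 and Slc35f6. Leaving out the 3 most abundant rows brought the summed levels to 2360 and 2310 CPM.

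**Figure D1:**
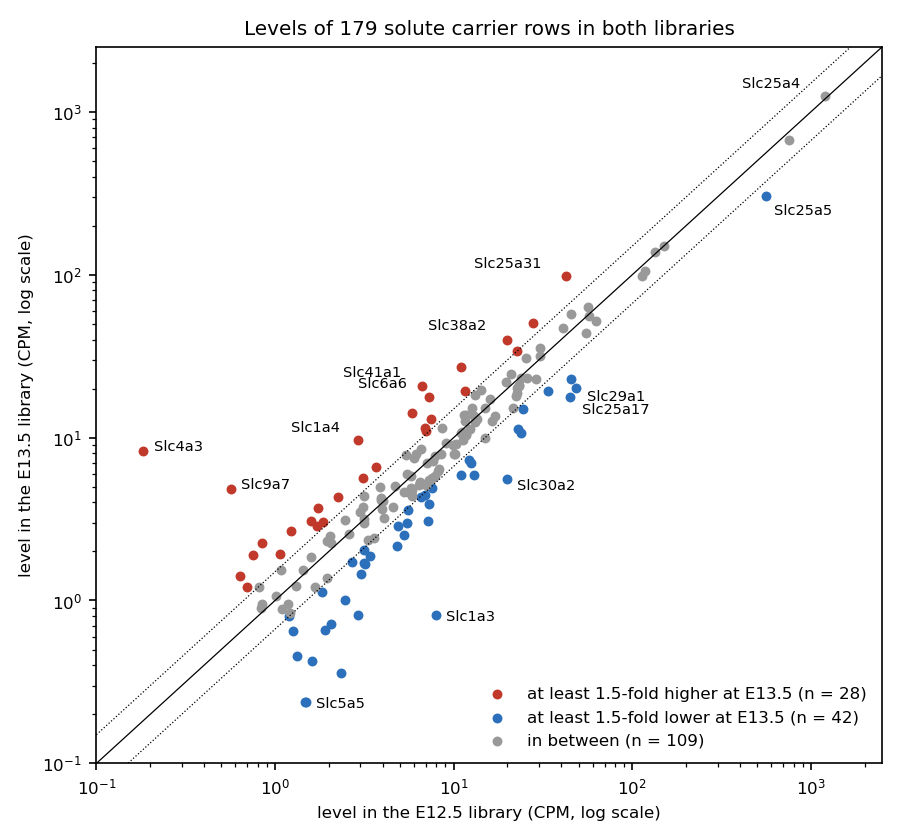
Level of each of the 179 Slc rows in the E12.5 library (x axis) and the E13.5 library (y axis), in CPM on log scales; each point is 1 gene, the solid line marks equal levels and the dotted lines 1.5-fold. Most points lie near the solid line, Slc4a3 (0.183 and 8.22 CPM) lies farthest above it and Slc1a3 (7.93 and 0.816 CPM) farthest below.

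Adenine nucleotide carriers, which exchange ADP for ATP across the inner mitochondrial membrane, differed from each other between the libraries. Slc25a4, whose product is the carrier known best from heart and muscle, stood at 1203 and 1248 CPM, 1.04-fold higher at E13.5 (1.03 to 1.05). Slc25a5, the X-linked carrier of most dividing somatic cells, had 33632 and 17939 UMIs (560.2 and 305 CPM), a 1.84-fold lower level at E13.5 (1.80 to 1.87). Slc25a31, the carrier of germ cells, which is needed in male meiosis, had 2553 and 5746 UMIs (42.5 and 97.6 CPM), 2.30-fold higher (2.19 to 2.41). It moved from rank 16 to rank 8 in abundance among the 179 rows. As a share of the 3 genes' UMIs, Slc25a5 took 31.0% (exact binomial interval 30.7 to 31.3%) at E12.5 and 18.5% (18.2 to 18.7%) at E13.5, and Slc25a31 took 2.36% (2.27 to 2.45%) and 5.91% (5.77 to 6.06%). Slc25a4 took 66.6% and 75.6%. Their summed level was 1806 and 1651 CPM. Slc25a5 has processed pseudogenes, so reads could be shared with copies and its count is uncertain to that extent.

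In GRCm38, Slc25a4 lies on chromosome 8 (46206797 to 46211284, minus strand), Slc25a5 on chromosome X (36795651 to 36798807, plus strand) and Slc25a31 on chromosome 3 (40708855 to 40726096, plus strand). The annotation gives them as protein-coding genes with no exon shared with another gene. Their RefSeq promoters (GRCm38.p6, from 250 bases before to 50 after the start of transcription) are shown because these close relatives differed in their stage ratios, with matches to 6 searched motifs in capitals. They span chr8:46211013-46211312 (minus strand), chrX:36795347-36795646 (plus strand) and chr3:40708621-40708920 (plus strand), each given 5' to 3' along the gene.

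Slc25a4: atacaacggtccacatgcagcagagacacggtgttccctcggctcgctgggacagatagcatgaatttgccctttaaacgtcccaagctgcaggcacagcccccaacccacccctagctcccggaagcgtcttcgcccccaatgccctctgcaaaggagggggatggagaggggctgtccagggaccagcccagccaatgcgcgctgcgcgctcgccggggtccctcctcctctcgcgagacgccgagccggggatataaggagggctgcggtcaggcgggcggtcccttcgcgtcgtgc

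Slc25a5: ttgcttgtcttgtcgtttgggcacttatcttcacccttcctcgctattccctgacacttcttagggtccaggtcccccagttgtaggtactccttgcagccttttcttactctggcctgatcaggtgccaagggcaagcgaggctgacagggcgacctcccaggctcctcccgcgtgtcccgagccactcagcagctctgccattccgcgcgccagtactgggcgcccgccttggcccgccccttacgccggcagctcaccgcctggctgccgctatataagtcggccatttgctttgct

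Slc25a31: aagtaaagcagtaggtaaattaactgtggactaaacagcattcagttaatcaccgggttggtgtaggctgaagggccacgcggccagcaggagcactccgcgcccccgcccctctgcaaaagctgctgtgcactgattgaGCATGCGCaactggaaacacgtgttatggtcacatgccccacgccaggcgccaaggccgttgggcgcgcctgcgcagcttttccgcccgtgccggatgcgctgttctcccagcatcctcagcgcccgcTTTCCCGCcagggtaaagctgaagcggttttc

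The Slc25a31 promoter held 2 matches. TTTCCCGC, an E2F motif, began 19 bases after the start, and GCGCATGC, an NRF1 motif, lay on the minus strand 110 bases before it. The E2F form was found on either strand in 3 of 140 Slc promoters with an entry and in 2.21% of 8876 promoters of genes at the UMI minimum, the NRF1 form in 7 of 140 and in 6.29%. No promoter of the 34 lower rows with an entry held either, whereas 2 and 6 of the 84 in between did, and Slc25a31 was the 1 of 22 higher rows to hold them. The Slc25a4 and Slc25a5 promoters had no match to these motifs or to TTTGGCGC (E2F), ACGTGC (hypoxia response), TGACGTCA (CRE) and TGATGNAAN (the amino acid response element CARE). They held 25, 18 and 22 CG dinucleotides in the order shown, against a median of 22 over promoters of genes at the UMI minimum. A match is a run of letters and not a bound site.

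Counts per cell were compared at 1 depth. From each cell 13500 UMIs were drawn at random, leaving out shallower cells; 2359 and 2386 cells remained. The median cell carried 7 Slc25a5 UMIs at E12.5 (5th to 95th percentile 2 to 14) and 4 at E13.5 (1 to 8), while the median for Slc25a4 was 16 at both stages. Slc25a31 was seen in 42.5% of cells (40.5 to 44.5%) at E12.5 and 67.6% (65.6 to 69.4%) at E13.5, or 57.1% and 78.7% without thinning. As background from free RNA, 23 barcodes of the E13.5 library with 0.5% or more Sertoli cell marker UMIs (median depth 10724 UMIs) held no Slc25a31 UMI in 259385. By a floor of 3 UMIs, a count of 0 allows up to 11.6 CPM, and the exact Poisson limit is 14.2 CPM; both lie below the germ cell level of that library, 97.6 CPM. The E12.5 library had 1 such barcode, and so no background of its own. Such barcodes also hold RNA of their own cells, so a level seen there is not free RNA alone. At 2000 UMIs per cell none of those 23 carried it, which by a floor of 3 barcodes allows a share of up to 13.0% (exact binomial limit 14.8%), and the germ cell share of that library was 17.6%. The E12.5 germ cell share, 7.78%, lies under those limits of the other library. Slc25a5 stood at 617 CPM (525 to 720.2) and Slc25a4 at 613 CPM (521 to 716) in the same Sertoli-marker barcodes. There the 2 genes were level, while in germ cells of the same library Slc25a4 was well above Slc25a5.

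**Figure D2:**
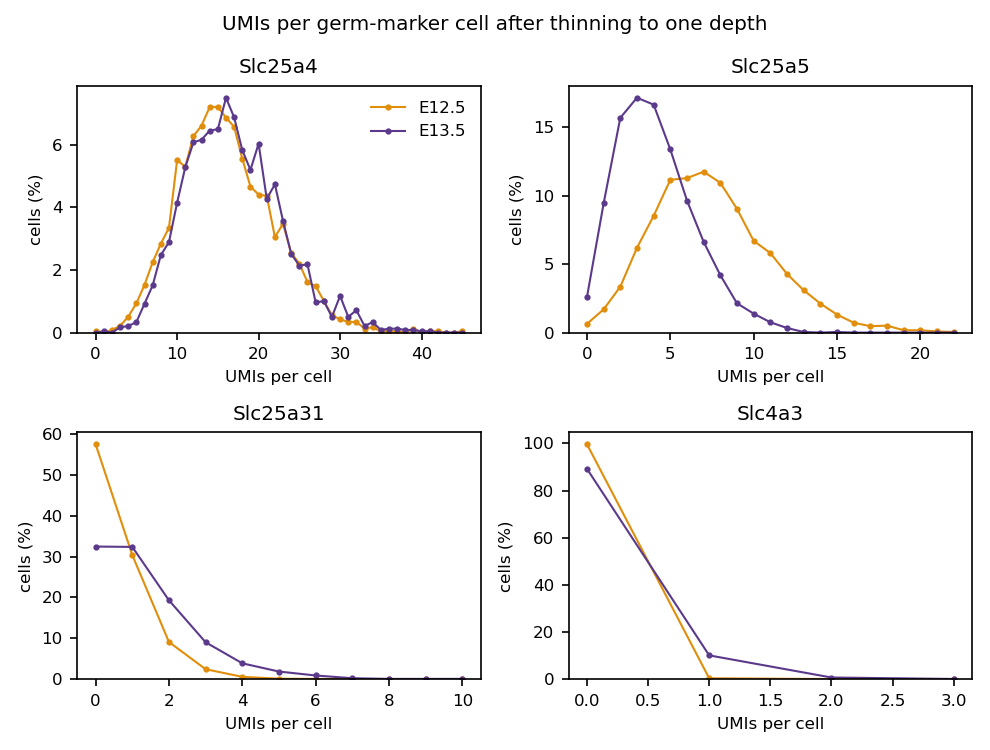
Percent of germ-marker cells (y axis) with each number of UMIs per cell (x axis) after thinning to 13500 UMIs, for 4 genes, at E12.5 (orange, 2359 cells) and E13.5 (purple, 2386 cells). The Slc25a5 curve peaks at lower numbers at E13.5 (median 4 against 7), Slc25a4 keeps a median of 16, fewer cells lack Slc25a31 at E13.5, and most cells lack Slc4a3 at both stages.

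Mitochondrial carriers as a class, 36 rows of the Slc25 family, took 3215 and 2925 CPM. Of these, 4 were higher (11.1%, against 14.1% of all genes at the UMI minimum), 7 lower (19.4%, against 14.2%) and 25 in between. Their median log2 ratio was -0.15. Slc25a39, which carries glutathione into mitochondria, stood at 134 and 138 CPM, Slc25a33, a pyrimidine nucleotide carrier, at 113 and 98.4 CPM, and Slc25a11, the oxoglutarate carrier, at 56.6 and 63.7 CPM. These abundant rows lay within 1.5-fold. Slc25a51, the mitochondrial NAD carrier, was 1.80-fold higher (1.70 to 1.91), at 27.9 and 50.2 CPM. Slc25a1, which exports citrate for fatty acid and sterol synthesis, was 1.99-fold lower (1.86 to 2.12), at 45.4 and 22.8 CPM. Slc25a17, a member of the family that sits in the peroxisome and carries cofactors, was 2.51-fold lower (2.34 to 2.70), at 44.6 and 17.7 CPM. Slc25a13, the aspartate and glutamate carrier of the malate-aspartate shuttle, stood at 33.9 and 19.3 CPM, and its relative Slc25a12 at 5.30 and 4.60 CPM. Slc25a37, the iron carrier mitoferrin of red blood cell precursors, was lower at E13.5 (7.25 and 3.89 CPM), while red blood cell markers were higher there; their part in the ratio was not tested. The remaining lower rows were Slc25a40 (6.596 and 4.30 CPM) and Slc25a43 (88 and 14 UMIs), and the remaining higher rows were Slc25a27 (1.85 and 3.04 CPM) and Slc25a29 (0.700 and 1.21 CPM).

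The mitochondrial pyruvate carrier, made of Mpc1 and Mpc2, has no Slc symbol here. Its subunits lay on opposite sides: Mpc1 stood at 148 and 54.2 CPM, 2.73-fold lower at E13.5 (2.62 to 2.85), and Mpc2 at 75.5 and 113 CPM, 1.501-fold higher (1.45 to 1.56).

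**Figure D3:**
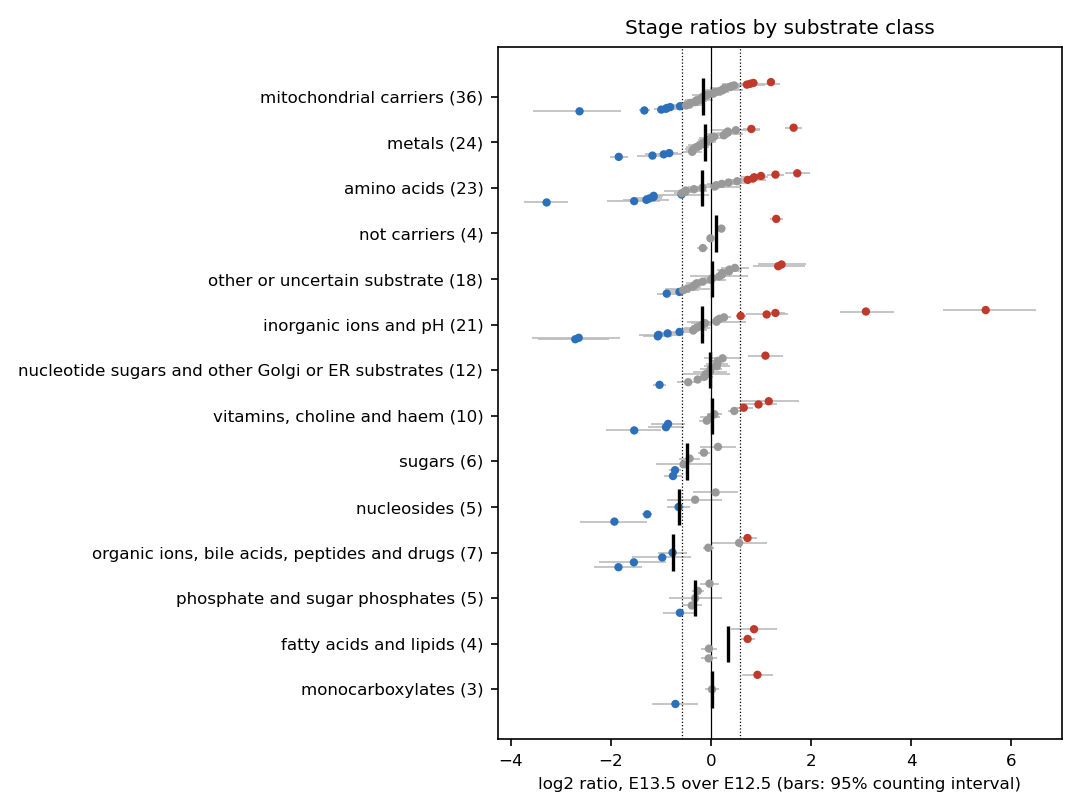
Stage ratio (log2, x axis) for each Slc row, grouped by substrate class (y axis, number of rows in parentheses); points are genes, grey bars 95% counting intervals, black ticks class medians, dotted lines 1.5-fold, and red and blue mark higher and lower rows. The sugar (-0.49), nucleoside (-0.65) and organic ion (-0.77) medians lie well to the left; Slc4a3 among the inorganic ion rows lies farthest right and Slc1a3 among the amino acid rows farthest left.

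Of 23 amino acid rows, 6 were higher (26.1%, against 14.1% of all genes at the UMI minimum), 7 lower (30.4%, against 14.2%) and 10 in between (median -0.17), and their summed level was 298 and 279.95 CPM. Slc38a2, a sodium-coupled importer of small neutral amino acids that cells induce when amino acids are scarce, had 1191 and 2335 UMIs (19.8 and 39.7 CPM), 2.0-fold higher (1.86 to 2.15). Slc6a6, the taurine importer, stood at 7.30 and 17.8 CPM (2.45-fold higher, 2.19 to 2.74), and Slc1a4, an exchanger of alanine, serine and cysteine, at 2.91 and 9.63 CPM (3.31-fold higher, 2.79 to 3.94). The large neutral amino acid carriers Slc43a1 (3.11 and 5.67 CPM) and Slc43a2 (3.68 and 6.58 CPM) and the cationic amino acid carrier Slc7a1 (1.72 and 2.85 CPM) were also higher. On the other side, Slc1a3, a glutamate importer best known from glia, had 476 and 48 UMIs (7.93 and 0.816 CPM), 9.72-fold lower (7.21 to 13.4), and the glutamine importer Slc1a5 stood at 7.18 and 3.06 CPM. Slc38a10 was 2.22-fold lower (2.02 to 2.44), at 23.7 and 10.7 CPM. The relatives Slc1a4 and Slc1a5, which take up overlapping neutral amino acids, thus lay on opposite sides. In the 23 Sertoli-marker barcodes, Slc38a2 stood at 54.0 CPM (29.5 to 90.6) and Slc7a1 at 42.4 CPM (21.2 to 75.9). There Slc6a6 stood at 19.3 CPM (6.26 to 45.0), Slc43a2 had an upper limit of 21.5 CPM, and Slc1a4 and Slc43a1, without a UMI, 14.2 CPM. None of the 6 higher rows can be separated from free RNA by that check. UMIs in those barcodes may also come from their own cells. For Slc1a4 and Slc43a1 the limit without a UMI lies above the germ cell level, so the check could not have set them apart.

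Slc3a2, the heavy chain that brings Slc7 light chains to the cell surface, was the most abundant amino acid row, at 118 and 105 CPM (1.13-fold lower, 1.09 to 1.17). Among its light chains, Slc7a5, the main importer of leucine, stood at 28.9 and 22.9 CPM, Slc7a6 at 14.97 and 9.99 CPM, and Slc7a7 at 13.0 and 5.88 CPM, 2.21-fold lower (1.94 to 2.52). All 5 rows of this group had ratios below 1, as did 5883 of 11659 genes at the UMI minimum. The 5 include Slc7a9, the light chain of another heavy chain. Of the 5, 1 was lower by 1.5-fold or more (20%, against 14.2% of all genes). Slc38a9, the lysosomal arginine carrier that signals to the growth kinase mTORC1, stood at 5.41 and 7.80 CPM.

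The promoter of Slc1a4 (RefSeq, GRCm38.p6, chr11:20332664-20332963, minus strand) is shown because it was the 1 of 5 higher amino acid rows with a promoter entry to hold the amino acid response element. Its capitals mark the match to TGATGNAAN, on the minus strand, beginning 5 bases before the start.

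Slc1a4: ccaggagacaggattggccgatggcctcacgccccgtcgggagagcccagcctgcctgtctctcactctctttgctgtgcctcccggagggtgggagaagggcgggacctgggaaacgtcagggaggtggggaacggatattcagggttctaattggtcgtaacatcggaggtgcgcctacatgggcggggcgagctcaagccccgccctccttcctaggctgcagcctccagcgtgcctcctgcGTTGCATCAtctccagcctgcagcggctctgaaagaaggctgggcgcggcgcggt

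The element was found in 2 of 18 amino acid rows with an entry, Slc1a4 and the lower Slc7a7, in 4 of 140 Slc promoters and in 2.05% of promoters of genes at the UMI minimum. The Slc38a2 promoter window held none of the 6 motifs.

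Of 6 sugar rows, 2 were lower (33.3%, against 14.2% of all genes), 4 lay in between and none was higher (median -0.49). With 14.1% of all genes higher, a count of none among so few rows says little, as does a count of 2 lower. Slc2a1, the widespread glucose importer, stood at 23.2 and 21.1 CPM, while Slc2a3, the high-affinity glucose importer of neurons and early embryos, stood at 24.6 and 14.95 CPM, 1.64-fold lower (1.51 to 1.79). At E12.5 Slc2a3 was level with Slc2a1 and at E13.5 below it. Slc2a8 stood at 12.3 and 7.25 CPM. Among 5 nucleoside rows, 3 were lower (60%, against 14.2% of all genes) and none higher (median -0.65), again a count over few rows. Slc29a1, the main equilibrative nucleoside carrier, had 2913 and 1183 UMIs, or 48.5 and 20.1 CPM, 2.41-fold lower at E13.5 (2.26 to 2.58), Slc29a2 stood at 6.91 and 4.42 CPM and Slc29a4 at 1.62 and 0.425 CPM. The lactate carrier Slc16a1 was level at 15.02 and 15.3 CPM (ratio 1.02, 0.925 to 1.12). Of the other monocarboxylate rows, Slc16a4 stood at 2.27 and 4.32 CPM and Slc16a3 at 1.83 and 1.12 CPM. Basigin (Bsg), the chaperone that brings such lactate carriers to the surface, stood at 437 and 333 CPM.

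Of 24 rows for zinc and other metals, 2 were higher, 4 lower and 18 in between (8.33% and 16.7%, against 14.1% and 14.2% of all genes at the UMI minimum; median -0.12), with sums of 368 and 356 CPM. The zinc importers Slc39a7 of the endoplasmic reticulum (57.0 and 56.0 CPM), Slc39a10 (55.0 and 44.1 CPM) and Slc39a6 (45.6 and 57.6 CPM) led the class. Slc30a2, which loads zinc into vesicles, was 3.58-fold lower (3.17 to 4.06), with 1191 and 326 UMIs. Slc41a1, a magnesium transporter, was 3.14-fold higher (2.80 to 3.53), at 6.63 and 20.8 CPM. The zinc importer Slc39a3 was higher (7.45 and 13.0 CPM), and the copper carrier Slc31a2 (12.4 and 6.98 CPM), the iron exporter Slc40a1 (4.85 and 2.16 CPM) and the zinc importer Slc39a4 (3.198 and 1.67 CPM) were lower. Slc31a1, the main copper importer, stood at 25.8 and 23.2 CPM.

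Carriers of inorganic ions held wide ratios on both sides. Of 21 rows, 5 were higher (23.8%), 6 lower (28.6%) and 10 in between, against 14.1% and 14.2% of all genes; the median was -0.17, whereas the summed level, 141 and 163 CPM, leaned the other way. Slc4a3, a chloride and bicarbonate exchanger, had 11 and 484 UMIs (0.183 and 8.22 CPM), 44.9-fold higher (24.9 to 90.5), and Slc9a7, a sodium and proton exchanger of the Golgi, had 34 and 285 UMIs, 8.55-fold higher (5.98 to 12.6). Both stood under 10 CPM and were named after their values were seen, as were Slc1a3, Slc25a43 and other rows under 10 CPM. Slc4a3 was carried by 0.339% (0.147 to 0.667%) and 10.8% (9.55 to 12.1%) of cells thinned to 13500 UMIs, or 0.422% and 16.3% without thinning. In the 23 Sertoli-marker barcodes it had 6 UMIs, or 23.1 CPM (8.49 to 50.4), above its 8.22 CPM in germ cells of that library. At 2000 UMIs it was seen in 1 of 23 of them (4.35%, 0.110 to 21.9%) against 1.47% of E13.5 germ cells, so its UMIs at E13.5 cannot be separated from free RNA by this check. Slc9a7 had no UMI in those barcodes, which allows up to 11.6 CPM by the floor of 3 UMIs (exact Poisson limit 14.2 CPM). That lies above its germ cell level of 4.84 CPM, so this check could not have set it apart. Other higher rows met the same limit: Slc41a1 stood at 15.4 CPM there (4.20 to 39.5) and Slc25a51 at 38.6 CPM (18.5 to 70.9). Slc12a2 stood at 7.71 CPM there (0.934 to 27.9), below its 34.0 CPM in germ cells of that library.

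Slc9b1, a sodium and proton exchanger known from sperm, stood at 5.81 and 14.2 CPM (2.44-fold higher, 2.15 to 2.78). Slc12a2, which brings sodium, potassium and chloride into cells, stood at 22.5 and 34.0 CPM (1.51-fold higher, 1.41 to 1.62), and its chloride-exporting relative Slc12a4 at 5.25 and 2.51 CPM. The lower end held Slc26a10 (140 and 21 UMIs) and Slc5a5, the iodide importer of the thyroid (89 and 14 UMIs). Slc24a5, an exchanger known from pigment cell organelles, stood at 19.6 and 22.0 CPM in germ cells and at 108 CPM (71.7 to 156) in the Sertoli-marker barcodes. Its exons overlap those of Myef2 on the opposite strand, so its UMIs are uncertain.

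The remaining classes were small. Over all genes at the UMI minimum, 14.1% were higher and 14.2% lower, and counts over few rows say little. Among 12 rows for nucleotide sugars and other Golgi or endoplasmic reticulum substrates, 10 lay in between. Slc35b1, which carries ATP into the endoplasmic reticulum, led with 62.7 and 52.2 CPM, and Slc35b2, which brings the sulfate donor into the Golgi, was 2.04-fold lower (1.85 to 2.24). Of 10 rows for vitamins, choline and haem, 3 were higher and 3 lower (30% each), and 4 lay in between. The choline carrier Slc44a1 stood at 14.2 and 19.7 CPM, the riboflavin carrier Slc52a2 at 13.0 and 13.6 CPM and the multivitamin carrier Slc5a6 at 6.98 and 10.99 CPM. Of 7 rows for organic ions and peptides, 4 were lower (57.1%) and 1 was higher (14.3%), with a median of -0.77. Slc15a4, a lysosomal peptide and histidine carrier, was level at 24.0 and 23.1 CPM. Slc5a3, the inositol importer, was higher at 6.88 and 11.4 CPM, but shares exons with Mrps6 on the same strand, so its count is uncertain. All 5 phosphate and sugar phosphate rows had ratios below 1, as did 5883 of 11659 genes at the UMI minimum. Slc20a1, a phosphate importer, stood at 22.5 and 18.8 CPM, Slc37a3 was near level at 7.84 and 7.70 CPM, and Slc37a1 was the 1 lower row. Of 4 fatty acid rows, Slc27a3 (11.6 and 19.3 CPM) and Slc27a2 were higher and Slc27a4 and Slc27a1 level. Slc27a3 stood at 54.0 CPM (29.5 to 90.6) in the Sertoli-marker barcodes, above its germ cell level. Of 18 rows of other or uncertain substrate, 2 were higher, 2 lower and 14 in between, with Slc35a4 at 30.5 and 35.7 CPM, Slc35f2 at 21.0 and 24.4 CPM and Slc35f6 at 10.9 and 5.93 CPM.

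The symbol rule also took in 4 genes that are not carriers. Slc9a3r1, a scaffold protein that tethers membrane proteins to the actin skeleton, ranked 4 in abundance at both stages, at 150.1 and 149 CPM. Its relative Slc9a3r2 was 2.47-fold higher at E13.5 (2.25 to 2.71), at 11.03 and 27.2 CPM, while Slc4a1ap stood at 41.0 and 47.4 CPM and Slc7a6os at 23.2 and 20.8 CPM. Slc9a3r1 had 3 UMIs in the Sertoli-marker barcodes (11.6 CPM, 2.39 to 33.8). Without the 4, 27 of 175 rows were higher and 42 lower.

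Germ cells with and without a UMI of the proliferation marker Mki67 gave stage ratios of the same sign for most higher and lower rows. Among the thinned cells, 2067 of 2359 carried Mki67 at E12.5 (87.6%) and 1431 of 2386 at E13.5 (60.0%). Slc25a31 was 2.33-fold higher at E13.5 (2.17 to 2.50) among cells with Mki67 and 2.08-fold higher (1.77 to 2.46) among cells without, and Slc25a5 1.81-fold and 1.87-fold lower. Slc29a1 was 2.14-fold lower among cells with Mki67 and 2.999-fold lower among cells without, and Slc30a2 4.17-fold and 3.49-fold lower. Slc38a2 was 1.84-fold higher (1.65 to 2.06) among cells with Mki67 and 2.85-fold higher (2.17 to 3.82) among cells without. These intervals cover counting error only, and whether the ratios differ was not tested. At E12.5 the Slc38a2 level was 1.46-fold higher (1.11 to 1.95) in cells with Mki67 than in cells without. At E13.5 that ratio was 0.942 (0.842 to 1.05). Slc1a4, at 6 UMIs in E12.5 cells without Mki67, was 2.94-fold higher (2.26 to 3.85) with Mki67 and 8.26-fold (3.71 to 22.8) without. Of 171 rows with 3 or more UMIs in each set of cells, 65 were higher or lower over all cells, and 64 of these had the same sign in both sets. The exception was Slc25a37, at 6.74 and 4.04 CPM among cells with Mki67 and 4.06 and 4.19 CPM among cells without. The 65 rows were called over these same cells, so a shared sign was likely in advance. The cells without Mki67 at E12.5 were few, 292, so their values rest on few UMIs, and the share of cells with a Mki67 UMI depends on the thinned depth.

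**Figure D4:**
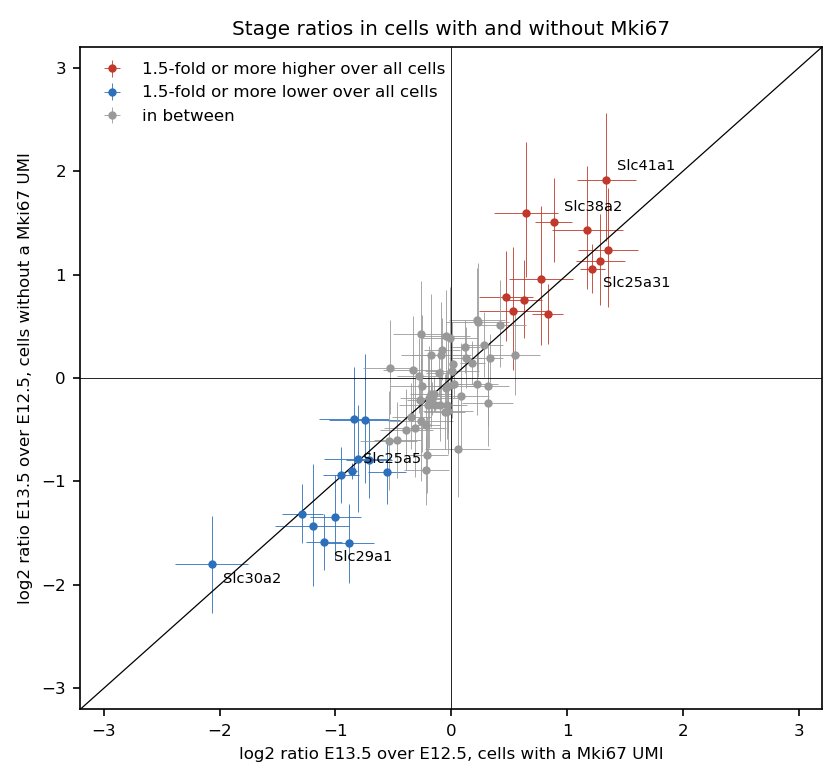
Stage ratio (log2) for the 75 Slc rows that reached 10 CPM in either library, in cells with a Mki67 UMI (x axis) and without (y axis), after thinning; bars are 95% counting intervals, the diagonal marks equal ratios, and colours give the size over all cells. Red points lie at the upper right and blue points at the lower left; Slc38a2 and Slc41a1 lie above the diagonal.

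Pumps and carriers outside the Slc naming were read from lists of proteins that work beside these carriers. For comparison, 14.1% of all genes at the UMI minimum were higher and 14.2% lower. Of 15 vacuolar proton pump genes measured, 14 lay within 1.5-fold and Atp6v1b2 was higher (47.8 and 75.9 CPM), and Atp6v1g1 was the most abundant at 358 and 344 CPM. Of 9 sodium and calcium pump genes, 3 were higher, 1 lower and 5 in between, the lower 1 being Atp2a2 of the endoplasmic reticulum (43.9 and 27.1 CPM). Of 16 ABC transporters, 3 were higher, 2 lower and 11 in between. Abcg2, an exporter of drugs and porphyrins, stood at 77.3 and 30.5 CPM, 2.53-fold lower (2.40 to 2.68), and Abcb6, a porphyrin transporter, at 17.8 and 39.8 CPM, 2.24-fold higher (2.09 to 2.41). Of 23 carriers with other symbols, 1 was higher, 2 lower and 20 in between, with Mtch2 of the outer mitochondrial membrane most abundant at 251 and 213 CPM. All 4 measured chaperone genes lay within 1.5-fold.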

How the data were processed

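Single-cell RNA-seq of sorted male germ cells was deposited as 1 table per stage. Per the labels' protocols, libraries were 10x v2; the submitters' processing notes name Cell Ranger and the builds mm10 and GRCm38, and no source used here gives the annotation. The authors deposited unnormalized UMI counts, with a gene in each row and a barcode in each column; no listed gene was in fewer than 3 barcodes and no barcode had fewer than 201 genes.

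At E12.5, 2621 of 2847 barcodes and at E13.5, 2670 of 2992 had 500 or more genes and under 10% mitochondrial UMIs. Of these, 16 and 26 carried fewer than 3 of 12 germ markers, 5 and 27 had a list of other markers at 0.5% or more of UMIs, and some met both; 13 and 6 retained barcodes stood exactly at 3 markers. This rule per barcode replaced clustering. No doublet caller was run; an alternative left out the deepest barcodes. Counts were summed per library as CPM. Intervals (95%) cover counting error only: Poisson for levels, Clopper-Pearson for shares and, conditional on both UMI counts' sum, for ratios; numpy 2.4.6, scipy 1.17.1 and edgeR 4.0.16 (TMM) were used. The ratio intervals were tested on simulated data drawn with counting error only, so that test does not cover extra spread among cells. In thinned cells the variance over the mean was 2.15 and 2.06 for Slc25a4 and 1.66 and 1.35 for Slc25a5. These lie above what counting alone would give, so the intervals of such abundant rows are too narrow for spread among cells. For comparisons per cell, 13500 UMIs were drawn from each cell, a depth that most cells of both libraries reached, which left out 245 and 244 cells.

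Substrate classes were written by hand from family and gene names; those of Slc9b1, Slc9b2, Slc35b, Slc35c, Slc35d and Slc18b1 were set after values were seen. The rows and lists were chosen with earlier results of these data known. Named rows were those at the UMI minimum, the 12 most abundant, the 10 highest and 10 lowest ratios at 10 CPM or more with an interval without 1, and the 2 most abundant of each class of 3 or more; others were named after their values were seen. Positions are from GENCODE M21 (all 179 matched), promoters from RefSeq (140 matched). Values of some rows are not reported here.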

Additional observations from a re-analysis of the deposited data

How the results depend on the processing

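With 1 library per stage no replicate could be left out, and no paired analysis was possible because each stage had a single library. Counts at 1.5-fold moved with the minimum level: 12 rows higher and 13 lower among the 75 at 10 CPM or more, and 51 higher and 69 lower among 252 rows with 3 or more UMIs in each library. The 7 alternatives of barcodes, weights and scaling gave 25 to 29 rows higher and 39 to 43 lower; cells with Mki67 gave 23 higher and 43 lower of 179 rows, and cells without gave 36 and 49 of the 171 with a ratio. Over those 171 rows cells with Mki67 gave 20 and 40. No share over all genes is given for the cut of 3 UMIs or for these alternatives. Ratios from few UMIs scatter more for any gene, so these counts are not a result about Slc rows. The median lay between -0.16 and -0.063 under every alternative run. TMM moved all log2 ratios by 0.0091 and a denominator without the most abundant genes by 0.042. Of the 70 rows past 1.5-fold, 70 had the same sign under each of these alternatives, except that without Mki67 64 of 65 did, the other being Slc25a37. Those rows were chosen by their ratio in these same cells, and their median log2 shift was 0.064 or less in size. A change of sign was therefore unlikely in advance, and the count does not measure robustness. Leaving in barcodes with other markers brought Slc6a8 from -1.54 to -0.73 (log2), the stricter barcode filter Slc5a5 from -2.64 to -3.28, and equal weight per cell Slc23a1 from 1.16 to 0.19 and Slc48a1 from -1.53 to -0.94. Of the genes followed singly, Slc39a3 went from 0.81 to 1.6 and Slc1a3 from -3.28 to -3.88 in cells without Mki67, and Slc16a4 from 0.93 to 0.26 with Mki67, under 1.5-fold, and 1.6 without. Of the 179 ratios, 135 had an interval without 1, and depth does not separate the others from equal levels.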

Other observations

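Among the 10 Slc rows on chromosome X, 1 was higher at E13.5 by 1.5-fold or more (Slc9a7), 4 lower (Slc25a5, Slc25a43, Slc6a8 and Slc7a3) and 5 in between. Their summed level was 589 and 338 CPM, most of it Slc25a5. Of the 169 on autosomes, 27 were higher (16.0%) and 38 lower (22.5%). Over all genes at the UMI minimum, X-linked genes included, 14.1% were higher and 14.2% lower. Over all 414 X-linked genes at the same UMI minimum, 23.7% were higher and 13.3% lower.

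Among rows listed for 1 stage alone, Slc9a9, an endosomal sodium and proton exchanger, had the most UMIs, 28 in 28 cells of the E13.5 library (0.476 CPM). It was followed by the urea carrier Slc14a1 with 23 and Slc12a1 with 22. Of the 7 rows listed for E12.5 alone, Slc39a2 had the most, 10 UMIs in 8 cells. These rows were given no ratio.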
